A study of Homo sapiens with 18 samples.

Results

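The comparison described here asks which differences between 3D and 2D culture of MCF10A cells widened, closed, reversed or persisted between timepoint 2 and timepoint 3. MCF10A is an established, non-malignant breast epithelial line with basal-like features. The comparison draws on 12 of the 18 libraries of the series, in 4 of its 6 groups with 3 libraries each, chosen by culture and timepoint alone. All groups had been plated sparsely on compliant polyacrylamide gels coated with Matrigel, a laminin-rich basement membrane extract, at 50 µg/ml. All received medium with 5% horse serum, 20 ng/ml EGF, 10 µg/ml insulin, 100 ng/ml cholera toxin and 0.5 mg/ml hydrocortisone. The groups were 3D culture at timepoint 3, 2D culture at timepoint 3, 3D culture at timepoint 2 and 2D culture at timepoint 2. In 3D the medium added after 1 h of attachment held 2% Matrigel, which sets around the cells, and in 2D it was fresh medium without that addition. The protocol names harvests at 3, 12 and 21 h, so that timepoints 3 and 2 correspond to 21 and 12 h only by their order. The model is 1 cell line plated sparsely, and the labels do not say whether replicates came from separate cultures, so that p-values measure only the spread between these samples.

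For each gene the quantity tested was the interaction, (3D minus 2D at timepoint 3) minus (3D minus 2D at timepoint 2), in log2 units. It was fitted with edgeR's quasi-likelihood test on the deposited counts, with the replicate number as a block, and called at a Benjamini-Hochberg adjusted p under 0.05 over 17978 genes. A negative value means that 3D became lower relative to 2D at timepoint 3 than it had been at timepoint 2. Where the interaction was called, the culture difference was named reversed when it was called at both timepoints with opposite signs. Otherwise it was named widened when it was called at timepoint 3 with the sign of the interaction. It was named closed when it was called at timepoint 2 and became smaller. A widened difference need not have been called at timepoint 2, and its fitted value there could have the opposite sign. The difference was named persisted when it was called at both timepoints with one sign and the interaction was not called. Levels are given in counts per 1e6 counts (CPM) after TMM scaling. The counts sum to several times the library totals, so CPM is compared between libraries of 1 gene and never between genes.

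The library labelled 2D timepoint 3 replicate 1 stood apart from its group. It has a column in the count table and none in the authors' log2 CPM table, and the main values leave it out, with 11 libraries and n = 2 in that group. Over 8788 well-counted genes the SD of its log2 differences was 0.268 from 3D timepoint 3 replicate 1, against 0.626 and 0.498 from replicates 2 and 3 of its own group. The gene ATF3 had 2.90 CPM in it, against 79.1 and 70.5 CPM in the other 2D libraries of timepoint 3. Its share of counts from ribosomal protein genes, 11.1%, nevertheless lay within the 9.89 to 12.9% of the 2D libraries and under the 14.2 to 20.4% of the 3D libraries. Values with it come from 12 libraries and 17533 genes and stand beside each called interaction named.

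Header totals of the other 11 libraries, in units of 1e6 reads, ran from 9.31 to 16.9, and summed counts of all 12 ran from 50.0 to 93.9 in the same unit. Markers of basal mammary epithelium were present in every library, with KRT5 between 2720 and 6440 CPM and TP63 between 23.5 and 78.8 CPM. In the list of luminal and hormone markers PGR had no count in any library, and ESR1 lay between 0.0601 and 0.504 CPM. Others of that list were present, with KRT7 between 1660 and 3380 CPM, KRT8 between 233 and 573, KRT18 between 215 and 356 and MUC1 between 154 and 1170. Of the 8 fibroblast markers COL3A1 had no count anywhere and DCN lay between 97.7 and 308 CPM. The summed CPM of the fibroblast list spanned 145 to 250 in the 3D libraries of timepoint 3, 156 to 323 in their 2D counterparts, 102 to 185 in the 3D libraries of timepoint 2 and 170 to 268 in their 2D counterparts. Of the 8 immune markers CD3E and TYROBP had no count anywhere, whereas CD14 lay between 5.1 and 20.7 CPM and CD68 between 11.8 and 20.8 CPM. The summed immune CPM spanned 19.5 to 26.6 in the 3D libraries of timepoint 3, 30.0 to 41.1 in their 2D counterparts, 17.7 to 24.4 in the 3D libraries of timepoint 2 and 27.3 to 40.9 in their 2D counterparts. What part these markers had in the results was not tested. The summed list of 6 endothelial markers stayed between 1.88 and 4.88 CPM. Fewer cells of a kind and less RNA per cell cannot be told apart in such bulk libraries.

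As background, the integrated stress response is the programme in which phosphorylation of the initiation factor eIF2α slows translation and the transcription factor ATF4 drives genes such as ATF3, DDIT3 and CHAC1. Immediate early genes such as FOS and JUN encode transcription factors that growth factors and stress induce within minutes. Ribosomal protein genes encode the structural proteins of the ribosome and are among the most abundant messages of growing cells. In MCF10A, culture within Matrigel is widely used to obtain spheroids that resemble mammary acini, and the series' title relates matrix dimensionality to endoplasmic reticulum function.

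The interaction was called for 109 of 17978 genes, 0.606% of those tested, of which 42 were higher and 67 lower. On the same 11 libraries DESeq2 called 1175 genes and limma-voom 299, and 3346 had an unadjusted p under 0.05 by edgeR. Between cultures 20.4% of genes were called at timepoint 3 and 28.1% at timepoint 2, and with 12 libraries 14.6% and 24.6%. With the 12th library 0 genes, 0%, passed in the interaction, the smallest adjusted p being 0.145 by edgeR, while 2039 genes had an unadjusted p under 0.05, limma-voom called 0 and DESeq2 called 268. All 109 genes kept their sign with 12 libraries, 76 of them had an unadjusted p under 0.05 there, and the median ratio of the 12-library to the 11-library size was 0.73. Called sizes had a median of 1.07 among the higher and -0.87 among the lower genes, against -0.0022 over all genes tested. Of the 109, 56 were widened, 30 closed and 23 reversed. Only 13 of the 56 widened differences were also called at timepoint 2. Some had the opposite fitted sign there, such as H1-2 with 0.31 at timepoint 2 and -1.09 at timepoint 3. In 107 of the 109 genes the fitted change over time had opposite signs in 3D and in 2D. It passed the test in 3D alone for 55, in 2D alone for 34, in both for 5 and in neither for 15. The larger fitted change was nevertheless in 2D for 58 of the 109. These test counts are not on equal terms, since 2D had n = 2 at timepoint 3 and 3D had n = 3.

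**Figure D1:**
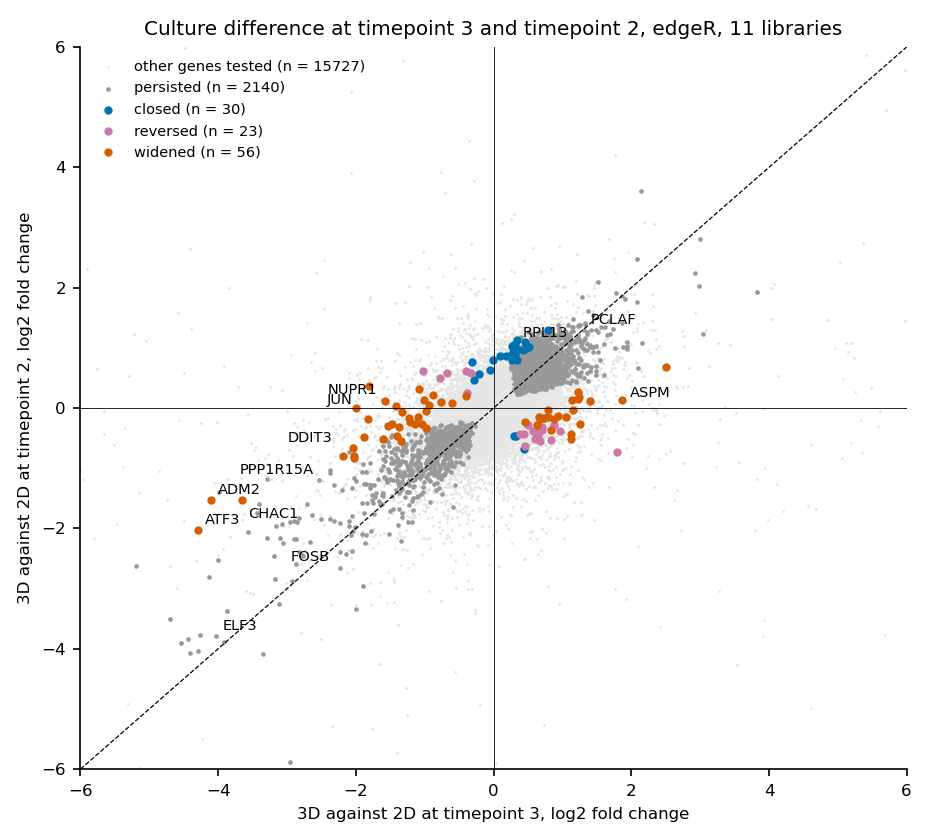
Log2 fold change of 3D against 2D at timepoint 3 (x axis) and at timepoint 2 (y axis) for each gene, from the edgeR fit of 11 libraries. Colours give the class, dark grey points around the dashed line of equality are differences that persisted, and the widened stress genes ATF3, ADM2 and CHAC1 lie to the left of it, and 82 genes lie beyond the axes.

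The calls also moved with transcript length and base composition. The median longest annotated transcript was 6633 bases for the 42 higher genes and 2103 bases for the 67 lower genes, against 3036 bases for all genes tested. Median GC content was 38.1% in the higher and 56.7% in the lower genes, against 48.9% in all genes tested. When an offset for length and GC content was added to the fit, 7 genes were called and all were lower, among them ATF3, ADM2, NUPR1, DUSP10 and UPP1. Without the offset the interaction of DUSP10 was -1.24, and -0.71 with 12 libraries. What part length and GC content had in the calls was not tested further.

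The differences that widened toward lower levels in 3D were led by regulators of the integrated stress response. Of the 17 genes of that list, 8 were called lower in the interaction, where 0.373% of all genes were, and 0 were called higher. Its median interaction was -0.943, and -0.654 with 12 libraries. The median culture difference was -1.42 at timepoint 3 and -0.312 at timepoint 2, and 13 members were called lower at timepoint 3 and 7 at timepoint 2, against 8.5% and 12.9% of all genes. The count at timepoint 3 was 10 with 12 libraries, where 14.6% of all genes were called in either direction. Over time, with 11 libraries, 7 members rose in 2D, where 0.456% of all genes did, and 3 fell in 3D, where 2.07% did. With the offset for length and GC content the number called lower in the interaction was 3, and 2 members were above 0. Medians with the offset for length and GC content were -0.78 for the interaction, -1.23 at timepoint 3 and -0.273 at timepoint 2.

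ATF3, a stress-induced repressor and activator of transcription, lies at chr1:212613436-212620777 (hg38, plus strand). It had 3.65, 3.52 and 3.23 CPM in 3D at timepoint 3, against 79.1 and 70.5 CPM in 2D replicates 2 and 3 and 2.90 CPM in 2D replicate 1. It had 4.34, 7.79 and 7.11 CPM in 3D at timepoint 2, against 20.9, 27.0 and 29.1 CPM in 2D. Apart from 2D replicate 1, which lay below every 3D library, the cultures did not overlap at either timepoint, and the 2D libraries were higher at timepoint 3 than at timepoint 2. The culture difference was -4.29 ± 0.19 (SE) at timepoint 3 and -2.02 ± 0.16 at timepoint 2, an interaction of -2.27 ± 0.24 with an adjusted p of 0.0131 by edgeR. With 12 libraries the interaction was -1.42 with an adjusted p of 0.59, and the culture difference at timepoint 3 was -3.48 with an adjusted p of 0.016. In the authors' deposited table the log2 fold change of ATF3, 3D minus 2D, was -4.45 at timepoint 3 and -2.10 at timepoint 2.

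DDIT3, the pro-apoptotic factor CHOP, lies at chr12:57516593-57520517 (hg38, minus strand). It had 8.71, 7.62 and 9.45 CPM in 3D at timepoint 3, against 38.6 and 33.3 CPM in 2D replicates 2 and 3 and 9.16 CPM in 2D replicate 1. At timepoint 2 it had 9.36, 9.78 and 12.2 CPM in 3D, against 16.6, 16.9 and 15.99 CPM in 2D. The 3D libraries of both timepoints overlapped, and in 2D DDIT3 rose by 1.10 on the log2 scale with an adjusted p of 0.016 by edgeR, and with 12 libraries by 0.60 with an adjusted p of 0.47. The interaction was -1.38 ± 0.19 (SE), adjusted p 0.0238 by edgeR, and -0.87 with 12 libraries, adjusted p 0.50.

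CHAC1, a glutathione-degrading enzyme, had 0.506, 0.754 and 0.632 CPM in 3D at timepoint 3, against 11.1 and 7.12 CPM in 2D replicates 2 and 3 and 1.09 CPM in 2D replicate 1. Values at timepoint 2 were 1.17, 1.52 and 2.04 CPM in 3D, against 3.34, 5.404 and 4.99 CPM in 2D. All 3D libraries lay below all 2D libraries of the same timepoint. CHAC1 fell in 3D over time by 1.32 on the log2 scale, adjusted p 0.013 by edgeR, and its 2D change of 0.81 had an adjusted p of 0.087. Its interaction was -2.14 ± 0.29 (SE), adjusted p 0.0238 by edgeR, and -1.56 with 12 libraries. ADM2, a secreted peptide of the adrenomedullin family, had the larger interaction of -2.57 ± 0.33, adjusted p 0.0233 by edgeR, and -1.815 with 12 libraries, and fell in 3D by 1.65. It had 0.219, 0.246 and 0.275 CPM in 3D at timepoint 3, against 5.48 and 4.69 CPM in 2D replicates 2 and 3 and 0.198 CPM in 2D replicate 1.

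NUPR1, a small stress-induced chromatin protein, had 20.5, 25.6 and 33.5 CPM in 3D at timepoint 3, against 74.2 and 76.6 CPM in 2D replicates 2 and 3 and 18.2 CPM in 2D replicate 1. Timepoint 2 gave 28.7, 33.1 and 33.6 CPM in 3D, against 27.6, 33.3 and 32.5 CPM in 2D. The cultures overlapped at timepoint 2, with an uncalled difference of 0.03 ± 0.11 (SE), and the difference at timepoint 3 was -1.42 ± 0.12. NUPR1 rose in 2D by 1.17 on the log2 scale, adjusted p 0.013 by edgeR, and its interaction was -1.45 ± 0.16. The 12-library interaction was -1.005, the 2D change 0.71 with an adjusted p of 0.35, and the difference at timepoint 3 -0.97 with an adjusted p of 0.056. PPP1R15A, the phosphatase subunit that reverses eIF2α phosphorylation, had an interaction of -1.397 ± 0.20 and also rose in 2D, by 1.15. With 12 libraries these were -0.88 and 0.65, adjusted p 0.50 and 0.43 by edgeR. Its levels were 4.07, 4.21 and 4.35 CPM in 3D at timepoint 3, against 22.3 and 17.8 CPM in 2D replicates 2 and 3 and 4.84 CPM in 2D replicate 1.

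Promoters of 4 genes are shown because they are the members of the stress and immediate early lists with the smallest interaction p that hold a searched motif. The motifs, read on both strands of RefSeq promoters (GRCh38.p14, 250 bases before to 50 after the start), were the C/EBP-ATF element TGATGNAA, the cyclic AMP element TGACGTCA, its half-site TGACGT and the CArG box by name. A match to TGACGTCA holds the half-site on both strands. Capitals mark the matches. The ATF3 and CHAC1 regions belong to RefSeq starts upstream of the gene starts in the count table. ATF3 as counted starts at chr1:212613436, so the ATF3 window shown is not the sequence at that start.
ATF3, chr1:212565157-212565456, plus strand: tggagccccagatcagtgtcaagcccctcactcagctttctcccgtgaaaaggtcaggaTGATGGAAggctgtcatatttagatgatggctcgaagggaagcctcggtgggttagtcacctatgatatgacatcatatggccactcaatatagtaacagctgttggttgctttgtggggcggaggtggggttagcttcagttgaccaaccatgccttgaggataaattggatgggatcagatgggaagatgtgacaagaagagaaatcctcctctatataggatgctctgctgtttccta
CHAC1, chr15:40953221-40953520, plus strand: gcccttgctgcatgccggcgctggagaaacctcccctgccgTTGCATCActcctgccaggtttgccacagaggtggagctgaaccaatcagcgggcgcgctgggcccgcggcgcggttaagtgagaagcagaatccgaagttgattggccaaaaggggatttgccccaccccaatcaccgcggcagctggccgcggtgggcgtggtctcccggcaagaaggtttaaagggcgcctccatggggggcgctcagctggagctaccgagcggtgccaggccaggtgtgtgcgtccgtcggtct
PPP1R15A, chr19:48872171-48872470, plus strand: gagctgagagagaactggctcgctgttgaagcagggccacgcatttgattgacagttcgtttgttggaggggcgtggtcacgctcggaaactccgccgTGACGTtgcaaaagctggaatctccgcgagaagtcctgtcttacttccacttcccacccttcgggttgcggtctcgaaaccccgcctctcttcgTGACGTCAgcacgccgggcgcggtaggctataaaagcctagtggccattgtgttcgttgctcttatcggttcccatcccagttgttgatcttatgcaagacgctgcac
FOS, chr14:75278578-75278877, plus strand: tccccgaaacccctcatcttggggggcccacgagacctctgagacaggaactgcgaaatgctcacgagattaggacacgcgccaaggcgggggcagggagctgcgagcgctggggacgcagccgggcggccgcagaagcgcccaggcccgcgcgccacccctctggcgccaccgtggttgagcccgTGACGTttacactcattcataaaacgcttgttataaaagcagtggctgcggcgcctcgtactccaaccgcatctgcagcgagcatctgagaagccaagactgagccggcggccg

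TGATGNAA was found in the promoters of ATF3 and CHAC1, at positions -191 and -209 from the start, the CHAC1 match being on the minus strand. The full cyclic AMP element was found in PPP1R15A at position -58, and the half-site alone in FOS at position -64. Of the stress regulators with a promoter in the table, TGATGNAA was in 2 of the 6 called and in 0 of the 9 not called, against 3.67% of 27305 RefSeq promoters. These matches, in ATF3 and CHAC1, lie at RefSeq starts upstream of the counted gene starts. Of the immediate early genes, the half-site TGACGT was in 1 of the 3 called and in 5 of the 14 not called. TGACGTCA was in 1.98% of all promoters, TGACGT in 8.32% and the CArG box in 1.29%. A match describes the letters in this window and is not evidence of binding.

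**Figure D2:**
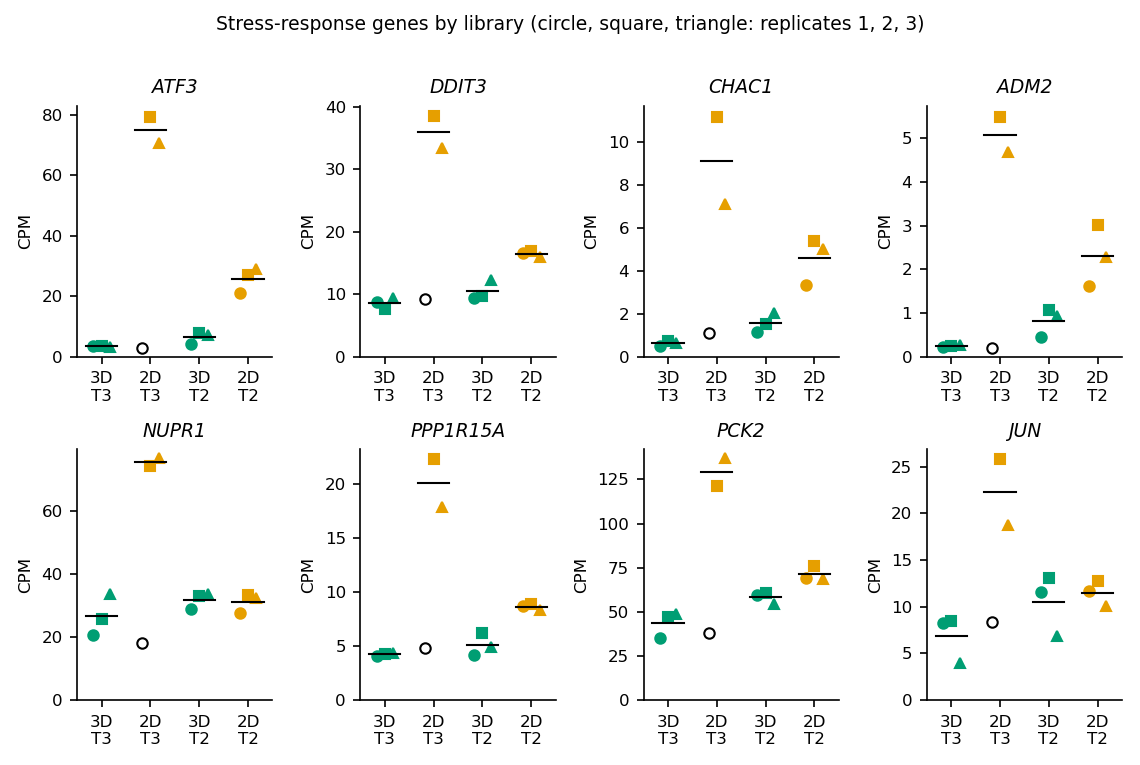
CPM (y axis, from 0) of 8 stress-response genes in each library of 3D timepoint 3, 2D timepoint 3, 3D timepoint 2 and 2D timepoint 2, with circles, squares and triangles for replicates 1, 2 and 3. Lines are group means, the open circle is the library labelled 2D timepoint 3 replicate 1, which the mean leaves out, and it lies with the 3D libraries while the other libraries of its group lie highest in each panel.

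Enzymes that ATF4 is known to induce formed a list of their own. Of 14 amino acid and one-carbon enzymes 1 was called lower in the interaction, where 0.373% of all genes were, with a list median of -0.365 and of -0.214 with 12 libraries. That gene was PCK2, the mitochondrial phosphoenolpyruvate carboxykinase, with an interaction of -1.24 ± 0.17 (SE), adjusted p 0.0238 by edgeR. It had 35.0, 47.2 and 48.5 CPM in 3D at timepoint 3, against 121 and 137 CPM in 2D replicates 2 and 3 and 37.7 CPM in 2D replicate 1. PCK2 differed between cultures by -1.53 ± 0.13 at timepoint 3 and by -0.29 ± 0.11 at timepoint 2, and it rose in 2D by 0.81. With 12 libraries its interaction was -0.82 and its 2D change 0.36, adjusted p 0.46 and 0.63 by edgeR. ASNS, asparagine synthetase, was called lower in 3D at both timepoints, by 1.57 and 0.54 on the log2 scale, and its interaction of -1.03 ± 0.21 had an adjusted p of 0.0547. Of 10 amino acid transporters 0 were called in the interaction by edgeR and limma-voom, against 2 by DESeq2 and 5 at an unadjusted p under 0.05, with a median of -0.126. Of 19 cytosolic tRNA synthetases 0 were called by edgeR and limma-voom, against 2 by DESeq2 and 7 at an unadjusted p under 0.05, with a median of -0.0752. Among all 17978 genes DESeq2 called 1175, and 3346 had an unadjusted p under 0.05. ATF4 itself had an interaction of -0.55 ± 0.12, adjusted p 0.0573 by edgeR. Its levels were 201, 201 and 241 CPM in 3D at timepoint 3, against 236 and 266 CPM in 2D replicates 2 and 3 and 181 CPM in 2D replicate 1.

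Of 25 listed chaperones and degradation factors of the endoplasmic reticulum 0 were called in the interaction by edgeR and limma-voom, against 2 by DESeq2 and 6 at an unadjusted p under 0.05. DESeq2 called 1175 of all 17978 genes, and 3346 had an unadjusted p under 0.05. The called genes outside that list, singled out after their values were seen, included DNAJC10, a disulfide reductase of the endoplasmic reticulum, at 0.83, and UGGT2, a folding sensor of glycoproteins there, at 1.20. With 12 libraries these were 0.61 and 0.73. The list's median culture difference was 0.0124 at timepoint 3 and -0.161 at timepoint 2. HSPA5, the chaperone BiP, had 59.9, 50.4 and 38.2 CPM in 3D at timepoint 3, against 64.7 and 57.7 CPM in 2D replicates 2 and 3 and 76.4 CPM in 2D replicate 1. Its interaction was -0.07 with a 95% interval of -0.51 to 0.37, which leaves room for a change of either sign. XBP1, a transcription factor of the unfolded protein response, had an interaction of -0.57 with a 95% interval of -0.90 to -0.23. Of 10 sensors and regulators of that response 0 were called in the interaction by edgeR and limma-voom, against 2 by DESeq2 and 5 at an unadjusted p under 0.05, with a list median of 0.202.

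Of 25 immediate early genes 3 were called lower in the interaction, where 0.373% of all genes were, and 0 higher. The list median was -0.522, and -0.319 with 12 libraries, and 23 of the 25 fitted values were below 0. Culture medians were -0.983 at timepoint 3 and -0.25 at timepoint 2, with 14 and 9 members called lower, against 8.5% and 12.9% of all genes. The count at timepoint 3 was 11 with 12 libraries, where 14.6% of all genes were called in either direction. JUN, an AP-1 subunit, had 8.23, 8.47 and 3.97 CPM in 3D at timepoint 3, against 25.8 and 18.8 CPM in 2D replicates 2 and 3 and 8.41 CPM in 2D replicate 1. The libraries of timepoint 2 had 11.6, 13.1 and 6.84 CPM in 3D, against 11.7, 12.7 and 10.1 CPM in 2D. The cultures overlapped at timepoint 2 and did not overlap at timepoint 3 once 2D replicate 1 was set aside. The interaction of JUN was -1.65 ± 0.24 (SE), adjusted p 0.0247 by edgeR, and -1.20 with 12 libraries.

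FOS, the partner of JUN in AP-1, was lower in 3D at timepoint 3 by 1.60 ± 0.13 (SE) and at timepoint 2 by 0.51 ± 0.11 on the log2 scale. Its interaction was -1.09 ± 0.17, and it fell in 3D over time by 0.63, adjusted p 0.020 by edgeR. With 12 libraries its interaction was -0.70, adjusted p 0.50. ZFP36, an RNA-binding protein that destabilises cytokine messages, was the third, with an interaction of -0.78 ± 0.14, and -0.47 with 12 libraries. FOSB, another AP-1 subunit, persisted instead, at -3.05 ± 0.15 at timepoint 3 and -2.24 ± 0.13 at timepoint 2, with an interaction of -0.81 and an adjusted p of 0.0723, and of -0.16 with 12 libraries. KLF4, an epithelial differentiation factor, likewise had an uncalled interaction of -1.35 ± 0.29, adjusted p 0.0575, and -0.80 with 12 libraries.

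Further genes widened downward in 3D. Of 23 p53 targets 2 were called lower in the interaction, where 0.373% of all genes were, the cell-cycle inhibitor CDKN1A at -0.65 ± 0.12 (SE) and the pro-apoptotic BBC3 at -1.20 ± 0.22, while the list median was -0.26. With 12 libraries CDKN1A had -0.36 and BBC3 -0.70, adjusted p 0.61 and 0.59. CDKN1A had 118, 134 and 138 CPM in 3D at timepoint 3, against 259 and 263 CPM in 2D replicates 2 and 3 and 122 CPM in 2D replicate 1. SQSTM1, the autophagy receptor p62, had an interaction of -0.93 ± 0.13, rose in 2D by 0.83 and had 0.0247 as its adjusted p by edgeR. With 12 libraries its interaction was -0.52 and its 2D change 0.40, adjusted p 0.61 and 0.55. TYMP, thymidine phosphorylase, differed by -1.34 ± 0.11 at timepoint 3 and by -0.07 ± 0.10 at timepoint 2, and it fell in 3D by 0.83. Its interaction was -1.27, and -0.89 with 12 libraries. The linker histone gene H1-2 had an interaction of -1.396 ± 0.20, with culture differences of -1.09 at timepoint 3 and 0.31 at timepoint 2. With 12 libraries its interaction was -1.03. Of 21 inflammatory genes 18 fitted interactions were below 0 and 1 was called lower, against 0.373% of all genes, with a median culture difference of -0.92 at timepoint 3 and -0.0139 at timepoint 2.

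Genes that widened toward higher levels in 3D numbered 22 and included mitotic genes. Of 32 genes of the G2-M list 3 were called higher in the interaction, where 0.234% of all genes were, and 0 lower. All 32 were called higher in 3D at timepoint 3 and 28 at timepoint 2, against 11.9% and 15.3% of all genes. The count at timepoint 3 was 24 with 12 libraries, where 14.6% of all genes were called in either direction. Medians with 11 libraries were 0.985 at timepoint 3 and 0.65 at timepoint 2, and 23 members rose in 3D over time, where 1.4% of all genes did, against 6 in 2D. The median interaction was 0.36, and 0.0983 with 12 libraries. The 3 were CENPE, a kinetochore motor, at 1.83 ± 0.32 (SE), ECT2, the exchange factor of cytokinesis, at 1.06 ± 0.19, and KIF11, a spindle motor, at 0.97 ± 0.18. With 12 libraries they were 0.60 for CENPE, 0.72 for ECT2 and 0.49 for KIF11, adjusted p 0.76, 0.38 and 0.60.

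ASPM, a spindle-pole protein outside that list, had 27.1, 13.6 and 17.6 CPM in 3D at timepoint 3, against 3.56 and 5.61 CPM in 2D replicates 2 and 3 and 26.7 CPM in 2D replicate 1. At timepoint 2 it had 10.1, 6.50 and 9.44 CPM in 3D, against 10.5, 4.12 and 10.1 CPM in 2D. The cultures overlapped at timepoint 2, and at timepoint 3 only 2D replicate 1 lay among the 3D libraries. ASPM rose in 3D by 1.14 on the log2 scale, adjusted p 0.0097 by edgeR. Its interaction was 1.72 ± 0.26, adjusted p 0.0305 by edgeR, and 0.86 with 12 libraries, adjusted p 0.55. SMC2, a condensin subunit, had an interaction of 1.28 ± 0.21 and CEP192, a centrosome scaffold, one of 0.86 ± 0.14. BCLAF1, a nuclear protein of RNA processing, had 1.06 ± 0.14, MPHOSPH9, a centrosomal protein, 1.19 ± 0.16, and TTC3, a ubiquitin ligase, 0.94 ± 0.16. The 12-library values were 0.80 for SMC2, 0.45 for CEP192, 0.72 for BCLAF1, 0.80 for MPHOSPH9 and 0.64 for TTC3.

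The differences that closed were mostly of genes higher in 3D at timepoint 2, namely 27 of 30, and the largest group was that of ribosomal proteins. Of 58 cytosolic ribosomal protein genes 49 were called higher in 3D at timepoint 3 and 57 at timepoint 2, against 11.9% and 15.3% of all genes, with medians of 0.507 at timepoint 3 and 0.982 at timepoint 2. In the interaction 14 were called lower, where 0.373% of all genes were, all of them closed, and 57 of the 58 fitted values were below 0, with a median of -0.511. Over time 37 fell in 3D, where 2.07% of all genes did, with median changes of -0.361 in 3D and 0.152 in 2D. In 2D 0 changed by edgeR and limma-voom, against 6 by DESeq2 and 17 at an unadjusted p under 0.05. Among all 17978 genes DESeq2 called 928 in 2D over time, and 3155 had an unadjusted p under 0.05. With 12 libraries the median interaction was -0.55 and 0 were called, while 50 were called higher in 3D at timepoint 3. All genes called at timepoint 3 with 12 libraries, in either direction, were 14.6%. With the offset for length and GC content the median interaction was -0.426. The number called was then 1, namely RPL37, which was not among the 14. Ribosomal protein genes held between 14.2 and 16.6% of counts in 3D at timepoint 3, against 11.1 to 12.9% in 2D, and between 14.8 and 20.4% in 3D at timepoint 2, against 9.89 to 12.3% in 2D. Many of these genes have processed pseudogenes that can share reads, so single values are uncertain.

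RPL13, of the large ribosomal subunit, lies at chr16:89560657-89566828 (hg38, plus strand). It had 3388, 4852 and 4017 CPM in 3D at timepoint 3, against 3834 and 3367 CPM in 2D replicates 2 and 3 and 2555 CPM in 2D replicate 1. It had 4357, 6536 and 6058 CPM in 3D at timepoint 2, against 2352, 3208 and 2974 CPM in 2D. At timepoint 2 every 3D library was above every 2D library, and at timepoint 3 the groups overlapped, although each 3D library was above the 2D library of its own replicate number. The culture difference was 0.32 ± 0.08 (SE) at timepoint 3 and 0.98 ± 0.07 at timepoint 2, an interaction of -0.67 ± 0.10 with an adjusted p of 0.0274 by edgeR. With 12 libraries the interaction was -0.64, adjusted p 0.14. RPL36, of the same subunit, had an interaction of -0.66 ± 0.10, and -0.59 with 12 libraries. RPL8 had -0.54, and -0.51 with 12 libraries. The offset for length and GC content gave -0.55 for RPL13, -0.30 for RPL36 and -0.17 for RPL8, adjusted p 0.093, 0.34 and 0.57 by edgeR.

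Other abundant short messages closed as well. S100A6, a calcium-binding protein, had 3111, 3914 and 3021 CPM in 3D at timepoint 3, against 3423 and 2776 CPM in 2D replicates 2 and 3 and 2354 CPM in 2D replicate 1. Values at timepoint 2 were 3794, 4976 and 4148 CPM in 3D, against 2134, 2707 and 2230 CPM in 2D. The groups were apart at timepoint 2 and overlapped at timepoint 3, where the difference of 0.18 ± 0.07 (SE) had an adjusted p of 0.10 by edgeR. The interaction was -0.69 ± 0.09, and -0.63 with 12 libraries. The offset for length and GC content gave -0.35 for S100A6 and -0.64 for FTH1, adjusted p 0.29 and 0.093 by edgeR. FTH1, the ferritin heavy chain, was higher in 3D at timepoint 2 by 0.56 ± 0.07 and differed by -0.20 ± 0.08 at timepoint 3, an interaction of -0.76 ± 0.11 that was -0.59 with 12 libraries. MT2A, a metal-binding metallothionein, kept a called difference of 0.79 ± 0.07 at timepoint 3, against 1.29 ± 0.06 at timepoint 2. Its interaction was -0.50 ± 0.09, and -0.62 with 12 libraries. By edgeR it was the 1 of 7 metallothioneins tested that was called in the interaction, where 0.373% of all genes were called lower. DESeq2 and limma-voom each called 3 of the 7, against 1175 and 299 of all 17978 genes. FTH1 and MT2A also have close copies in the genome.

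Of the closed genes 3 were lower in 3D at timepoint 2. ATP2C1, a calcium and manganese pump of the Golgi, had 185, 129 and 123 CPM in 3D at timepoint 3, against 107 and 108 CPM in 2D replicates 2 and 3 and 191 CPM in 2D replicate 1. Timepoint 2 gave 137, 119 and 122 CPM in 3D, against 202, 152 and 173 CPM in 2D. ATP2C1 fell in 2D by 0.58 on the log2 scale, adjusted p 0.047 by edgeR, and its interaction was 0.76 ± 0.14 (SE). With 12 libraries its 2D change was -0.42 and its interaction 0.60, adjusted p 0.18 and 0.27. IREB2, an iron-responsive RNA-binding protein, had an interaction of 0.79 ± 0.15, and 0.58 with 12 libraries.

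**Figure D3:**
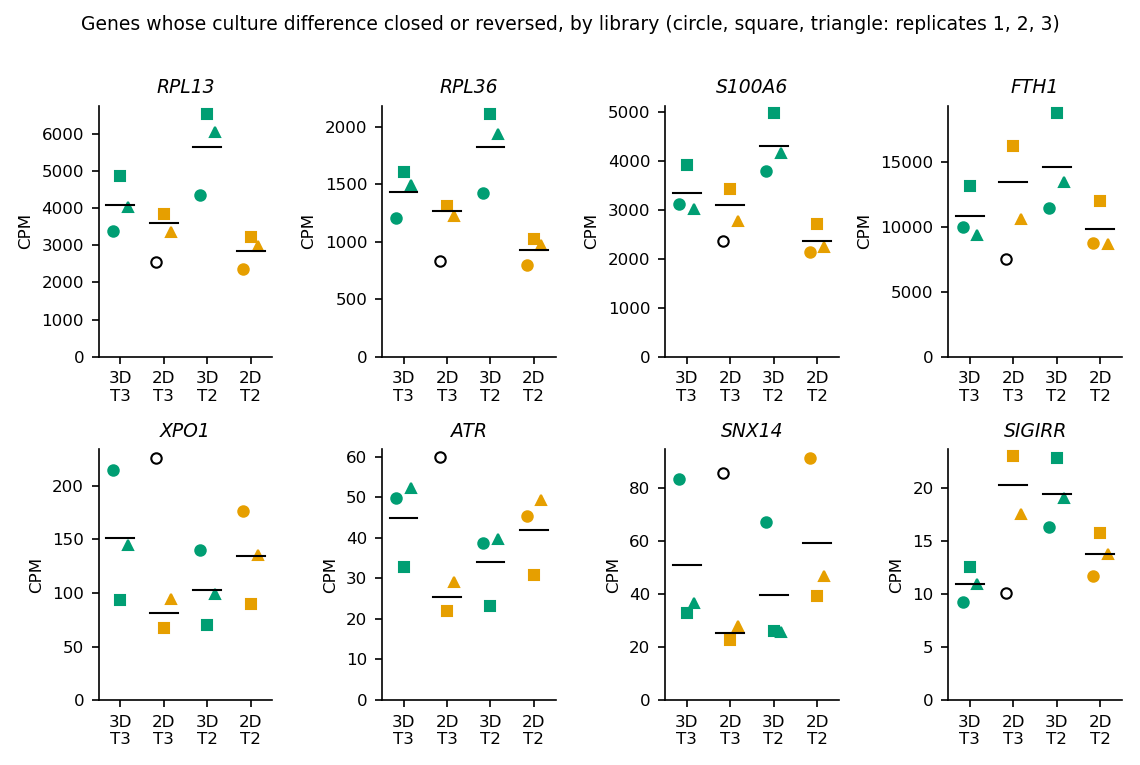
CPM (y axis, from 0) of 4 genes whose culture difference closed (top row) and 4 whose difference reversed (bottom row), in each library of 3D timepoint 3, 2D timepoint 3, 3D timepoint 2 and 2D timepoint 2. Symbols and lines are as in the plot of stress-response genes; RPL13, RPL36 and S100A6 are separated by culture at timepoint 2 and overlap at timepoint 3, and replicate 1 is high for XPO1 and SNX14 in every group.

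Nuclear genes of oxidative phosphorylation and the mitochondrial genome had fitted culture differences nearer 0 at timepoint 3, without edgeR calls. Of 37 nuclear subunit genes 33 fitted interactions were below 0, with a median of -0.301. By edgeR 0 were called, against 12 by DESeq2, 4 by limma-voom and 20 at an unadjusted p under 0.05. Among all 17978 genes these numbers were 1175 by DESeq2, 299 by limma-voom and 3346 unadjusted. Culture medians were 0.418 at timepoint 3 and 0.695 at timepoint 2. All 13 mitochondrially encoded genes had an interaction above 0, with a median of 0.63, and of 0.537 with 12 libraries. They were lower in 3D, with 2 called lower at timepoint 3 and 13 at timepoint 2, against 8.5% and 12.9% of all genes, and medians of -0.532 at timepoint 3 and -1.09 at timepoint 2. By edgeR 0 of the 13 were called in the interaction, against 1 by DESeq2, 1 by limma-voom and 4 at an unadjusted p under 0.05. Without replicate 1 their median interaction was 0.168, with 10 above 0. Mitochondrial genes held between 0.398 and 0.533% of counts in 3D at timepoint 3, against 0.589 to 0.783% in 2D, and between 0.364 and 0.482% in 3D at timepoint 2, against 0.908 to 1.18% in 2D.

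**Figure D4:**
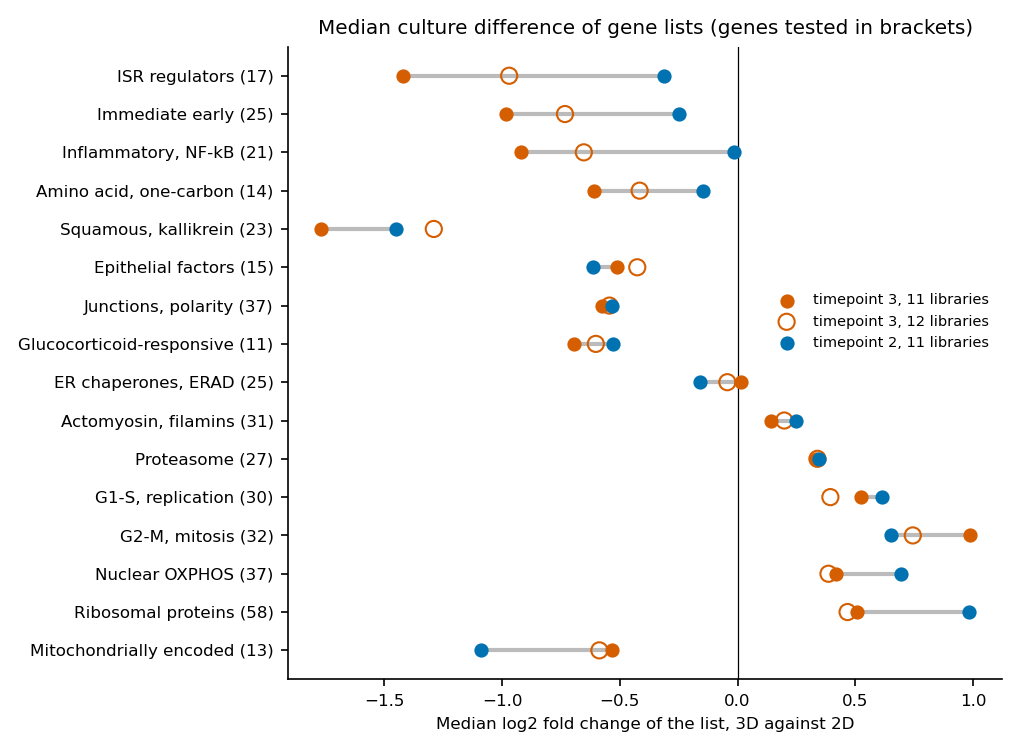
Median log2 fold change of 3D against 2D over the members of 16 gene lists, at timepoint 3 (filled orange with 11 libraries, open orange with 12) and at timepoint 2 (blue); the number of genes tested stands in brackets. The stress-response lists move further below 0 at timepoint 3, ribosomal proteins and the mitochondrial genome move toward 0, and the junction medians lie close together.

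The reversed differences were of genes lower in 3D at timepoint 2 and higher at timepoint 3 in 17 of 23 cases. Under the offset for length and GC content 2 differences reversed, and 0 genes were called higher in the interaction. The timepoint 2 difference then had an adjusted p above 0.05 by edgeR for KIAA0586, XPO1, ATR, ZFYVE16, SMCHD1, TRPM7 and MTX3. For SNX14 and ALG8 the timepoint 3 difference did, at 0.11 and 0.13 with adjusted p 0.58 and 0.42. XPO1, the main nuclear export receptor, had 215, 93.0 and 145 CPM in 3D at timepoint 3, against 67.5 and 94.8 CPM in 2D replicates 2 and 3 and 226 CPM in 2D replicate 1. It had 140, 70.1 and 99.1 CPM in 3D at timepoint 2, against 177, 90.0 and 136 CPM in 2D. The groups overlapped at both timepoints, with and without replicate 1, and within replicate numbers 2 and 3 the 3D library was the higher at timepoint 3 and the lower at timepoint 2. The culture difference was 0.58 ± 0.09 (SE) at timepoint 3 and -0.38 ± 0.08 at timepoint 2, an interaction of 0.96 ± 0.12 with an adjusted p of 0.0233 by edgeR. With 12 libraries the interaction was 0.70, adjusted p 0.27, and the difference at timepoint 3 was 0.31, adjusted p 0.18.

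ATR, the kinase that signals stalled replication, had 49.8, 32.9 and 52.2 CPM in 3D at timepoint 3, against 21.9 and 29.1 CPM in 2D replicates 2 and 3 and 59.9 CPM in 2D replicate 1. The libraries of timepoint 2 had 38.8, 23.3 and 39.8 CPM in 3D, against 45.3, 30.9 and 49.3 CPM in 2D. The 3D library was lower than its 2D counterpart in all 3 replicate numbers at timepoint 2. ATR rose in 3D by 0.41 and fell in 2D by 0.61 on the log2 scale, adjusted p 0.040 and 0.045 by edgeR, and its 2D change with 12 libraries was -0.25, adjusted p 0.61. Its interaction was 1.02 ± 0.14 (SE), and 0.67 with 12 libraries. With the offset for length and GC content it was 0.63, adjusted p 0.17.

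Others of this direction were SNX14, a lipid-droplet and endosome protein, at 1.10 ± 0.15 (SE), KIAA0586, a centriole protein of ciliogenesis, at 1.16 ± 0.15, and ALG8, a glucosyltransferase of N-glycan assembly, at 0.87 ± 0.14. The endosomal protein ZFYVE16 had 1.34 ± 0.20, the chromatin protein SMCHD1 1.11 ± 0.18, the channel kinase TRPM7 1.12 ± 0.18 and the mitochondrial protein MTX3 1.23 ± 0.20. Interactions of these 7 genes with 12 libraries ran from 0.64 for ALG8 to 0.98 for ZFYVE16. Of these 7 genes ALG8, MTX3, TRPM7, ZFYVE16, SNX14 and SMCHD1 had an adjusted p above 0.05 at timepoint 3 with 12 libraries, and KIAA0586 had 0.049.

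The other 6 reversed genes were higher in 3D at timepoint 2 and lower at timepoint 3. SIGIRR, an inhibitory receptor of interleukin-1 signalling, had 9.31, 12.6 and 10.9 CPM in 3D at timepoint 3, against 23.0 and 17.6 CPM in 2D replicates 2 and 3 and 10.1 CPM in 2D replicate 1. At timepoint 2 it had 16.4, 22.8 and 19.1 CPM in 3D, against 11.8, 15.8 and 13.8 CPM in 2D. The groups exchanged order without overlap once 2D replicate 1 was set aside, and SIGIRR fell in 3D by 0.83, adjusted p 0.0057 by edgeR. Its interaction was -1.27 ± 0.14 (SE), adjusted p 0.0131 by edgeR, and -1.07 with 12 libraries, where its timepoint 3 difference of -0.58 had an adjusted p of 0.027. UPP1, uridine phosphorylase, had an interaction of -0.91 ± 0.12 and rose in 2D by 0.52, which were -0.68 and 0.28 with 12 libraries. WDR45, an autophagy protein, had -0.64 ± 0.11, LARP6, which binds collagen messages, -1.25 ± 0.22, DENND6B, an endosomal exchange factor, -1.65 ± 0.29 and the histone gene H2AC25 -1.02 ± 0.17. With 12 libraries these were -0.41 for WDR45, -0.99 for LARP6, -1.44 for DENND6B and -0.79 for H2AC25.

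**Figure D5:**
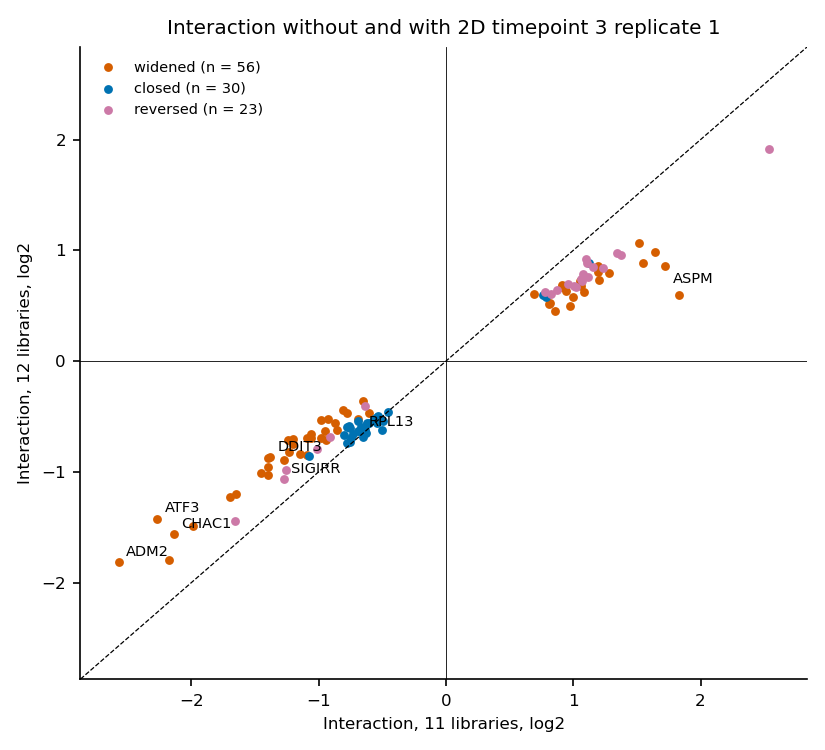
Interaction of the 109 called genes in log2 units with 11 libraries (x axis) and with the library labelled 2D timepoint 3 replicate 1 added (y axis), coloured by class. All points keep their sign, and widened genes such as ATF3 and ASPM lie nearer 0 with 12 libraries, whereas closed genes such as RPL13 lie close to the dashed line of equality.

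Persisting differences were far more numerous. With 11 libraries 2140 genes, 11.9% of those tested, kept a called culture difference of one sign, 1364 (7.59%) higher and 776 (4.32%) lower in 3D, and their median size was 0.677 at timepoint 3 and 0.684 at timepoint 2. For 1861 of them, 87%, the 95% interval of the interaction lay within 1 log2 unit of 0. That bound exceeds both median sizes, so persisted means that no interaction was called and not that the difference stayed the same. The class holds 38 of the 58 ribosomal protein genes and 23 of the 37 nuclear oxidative phosphorylation genes, against 11.9% of all genes. The medians of these 2 lists moved toward 0. With 12 libraries 1762 genes persisted, 1582 of the 2140 among them, and all 2140 kept both signs. A further 2834 genes were called at timepoint 2 alone and 1414 at timepoint 3 alone with no called interaction, and these remain unresolved. With the 12th library the counts were 2548 and 796.

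Persisting higher genes were led by PCLAF, a PCNA-associated replication factor. It had 91.8, 80.2 and 115 CPM in 3D at timepoint 3, against 32.2 and 46.3 CPM in 2D replicates 2 and 3 and 70.5 CPM in 2D replicate 1. Values at timepoint 2 were 81.9, 72.7 and 110 CPM in 3D, against 36.0, 32.3 and 38.1 CPM in 2D. Every 3D library was above every 2D library at both timepoints. The difference was 1.31 ± 0.11 (SE) at timepoint 3 and 1.29 ± 0.09 at timepoint 2, and the interaction had a 95% interval of -0.29 to 0.33. BIRC5, the mitotic protein survivin, rose over time in both cultures, by 0.65 in 3D and 0.87 in 2D, and kept a difference of 0.97 ± 0.09 at timepoint 3 and 1.20 ± 0.08 at timepoint 2. CDKN3, a cell-cycle phosphatase, DYNLL1, a dynein light chain, SUB1, a transcription coactivator, and RBIS, a ribosome biogenesis factor, differed by 0.98 to 1.35 at timepoint 3 and by 0.96 to 1.28 at timepoint 2. Of 30 genes of the G1-S and replication list 21 persisted, and of the 32 G2-M genes 27 did. All of these were higher in 3D, where 7.59% of all genes persisted higher.

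Persisting lower genes included factors of epithelial differentiation. ELF3, an epithelial transcription factor, had 0.246, 0.688 and 1.43 CPM in 3D at timepoint 3, against 12.0 and 16.8 CPM in 2D replicates 2 and 3 and 0.892 CPM in 2D replicate 1. Timepoint 2 gave 0.712, 1.62 and 2.07 CPM in 3D, against 16.9, 15.5 and 23.5 CPM in 2D. The library labelled 2D timepoint 3 replicate 1 lay among the 3D libraries, and no other library crossed over. ELF3 differed by -4.03 ± 0.33 (SE) at timepoint 3 and by -3.79 ± 0.29 at timepoint 2, and by -3.46 at timepoint 3 with 12 libraries. KRT16, a stress keratin of stratified epithelia, differed by -1.62 ± 0.13 at timepoint 3 and -1.45 ± 0.12 at timepoint 2. IL1RN, the interleukin-1 receptor antagonist, differed by -2.10 ± 0.17 and -1.88 ± 0.15 at timepoints 3 and 2, and CA2, a carbonic anhydrase, by -1.72 ± 0.14 and -1.48 ± 0.13. Of 15 epithelial factors tested 7 persisted, and of 23 squamous and kallikrein genes tested 12 did. Among all genes 11.9% persisted in either direction and 4.32% lower in 3D. In the squamous and kallikrein list 1 gene was called higher in 3D at each timepoint.

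Of 37 cell junction and polarity genes tested 24 were called lower in 3D at timepoint 3 and 26 at timepoint 2, against 8.5% and 12.9% of all genes, 0 were called higher at either, and 19 persisted, against 4.32%. The count called lower at timepoint 3 was 18 with 12 libraries, where 14.6% of all genes were called in either direction. Medians with 11 libraries were -0.577 at timepoint 3 and -0.533 at timepoint 2, and the median interaction was 0.0708, but -0.0138 by limma-voom. By edgeR 0 were called in the interaction, against 2 by DESeq2, 1 by limma-voom and 10 at an unadjusted p under 0.05. Among all 17978 genes these numbers were 1175 by DESeq2, 299 by limma-voom and 3346 unadjusted. CLDN7, a tight junction claudin, had 36.4, 41.9 and 46.7 CPM in 3D at timepoint 3, against 107 and 121 CPM in 2D replicates 2 and 3 and 39.6 CPM in 2D replicate 1. The libraries of timepoint 2 had 64.6, 67.7 and 71.9 CPM in 3D, against 114, 125 and 124 CPM in 2D. CLDN7 fell in 3D by 0.71 on the log2 scale, adjusted p 0.0057 by edgeR, and its interaction of -0.56 ± 0.12 (SE) had an adjusted p of 0.0596, and it was -0.19 with 12 libraries. OCLN, the tight junction protein occludin, moved the other way in fitted value, with differences of -2.00 ± 0.29 at timepoint 3 and -3.33 ± 0.29 at timepoint 2 and an interaction of 1.33 ± 0.42, adjusted p 0.127.

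Of 11 glucocorticoid-responsive genes 10 were called lower in 3D at each timepoint, against 8.5% of all genes at timepoint 3 and 12.9% at timepoint 2, and 9 persisted, against 4.32% persisting lower. The count at timepoint 3 was 7 with 12 libraries, where 14.6% of all genes were called in either direction. Hydrocortisone, a glucocorticoid, was in all media. TSC22D3, a glucocorticoid-induced leucine zipper protein, had 124, 169 and 121 CPM in 3D at timepoint 3, against 320 and 238 CPM in 2D replicates 2 and 3 and 139 CPM in 2D replicate 1. It differed by -0.99 ± 0.09 (SE) at timepoint 3 and by -0.91 ± 0.08 at timepoint 2. Of 27 proteasome subunits 10 persisted, all higher in 3D, against 7.59% of all genes, with medians of 0.331 at timepoint 3 and 0.346 at timepoint 2. FLNA, a filamin that crosslinks actin, was not called at either timepoint and had an interaction of -0.28 ± 0.16.

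In the authors' deposited tables, each made for 1 timepoint, 294 of 13677 genes were listed with an adjusted p under 0.05 at timepoint 3, of which 36 were higher and 258 lower in 3D. At timepoint 2 there were 489, of which 201 were higher and 288 lower. All 294 and all 489 were called with the same sign in the fit used here, which shares these libraries. That fit called 3663 and 5054 genes, so most of its culture calls had no such call by the authors. At timepoint 2 the authors' limma adjusted p was 0.13 for RPL13, 0.14 for RPL36 and 0.16 for RPL8, but 0.021 for MT2A. At timepoint 3 it was 0.33 for XPO1, 0.41 for SNX14 and 0.24 for ATR.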

How the data were processed

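Poly-A RNA of MCF10A cells was sequenced as 50 bp single-end reads. Per the submitters' processing notes, STAR 2.7.1a, HOMER, edgeR and limma were used on hg38, with no role or order given. The authors deposited whole-number counts per gene for 60662 identifiers without normalisation; the counting rule and strand setting are not given in the sources used, and the counts sum to 4.96 to 5.73 times the totals per the file headers, so no counting intervals are given. The deposited log2 CPM table and the authors' tables of log2 fold changes, p-values and test scores (limma columns, per the file headers) lack the library labelled 2D timepoint 3 replicate 1. No sample column was left unmapped.

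Counts were filtered with filterByExpr, scaled by TMM and fitted with edgeR 4.0.16 (R 4.3.3) with 4 group means and the replicate number as a block, leaving 5 residual degrees of freedom. SE is the size of the log2 fold change divided by the square root of F. Per the labels, each replicate number goes with one date in the sample descriptions, whose meaning they do not state. Deviations of same-numbered libraries correlated at 0.113 to 0.396, with a mean of 0.268. Those of other pairs correlated at -0.353 to 0.197, with a mean of -0.134, so the ranges overlapped. Deviations within a group sum to 0, so the negative mean is not separate support for the block. Groups were taken from the titles. CPM of the 12 libraries was scaled by TMM. Alternatives were the 12-library fit, no block, all 6 groups, RLE and upper-quartile scaling, no filter, a stricter filter of 1 CPM in 3 libraries, DESeq2 1.42.0, limma-voom and limma 3.58.1 on the deposited log2 CPM, and leaving out each library. Fits of 18 libraries, of 12 libraries with DESeq2 and limma-voom, and with an offset for length and GC content were added after the data were seen.

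Named genes were, among those with a mean count of at least 50, the 12 higher and 12 lower interaction calls with the smallest p and one sign in replicates 2 and 3, and 6 per class and direction. Up to 4 members per list with the smallest interaction p and a fixed set of genes of stress, actin crosslinking and epithelial function were added. Some genes that the rule selects are not reported here. The comparison, the 44 lists of 911 genes and the rules were chosen with earlier results of these data known. The interaction test was tried on simulated data with 67 genes changed by a fold of 1.5, 67 by 2 and 66 by 4. With 11 libraries and 17978 genes, the shares of changed genes called were 14.9%, 56.7% and 95.5% in that order, with 13 false calls. With 12 libraries and 17533 genes they were 10.4%, 56.7% and 89.4%, with 7 false calls. Counts were drawn independently around means fitted without an interaction. Changes were set in 3D at timepoint 3 alone, in genes with a mean count of at least 50. No simulated library was made to stand apart from its group, so the 12-library shares need not hold for the real 12-library fit.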

Additional observations from a re-analysis of the deposited data

Results flagged for a closer look

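The culture difference was tested between timepoint 3 and timepoint 2 by the interaction term itself, and the named genes whose interaction passed with 11 libraries are listed here by class with their log2 values. With 12 libraries 0 of them passed by edgeR, and all kept their sign. Of all 109 called genes, 0 passed there by edgeR and limma-voom, against 34 by DESeq2 and 76 at an unadjusted p under 0.05 by edgeR.

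Among differences that widened with 3D lower, the interaction was -2.27 for ATF3, -1.45 for NUPR1, -1.27 for TYMP and -2.57 for ADM2. It was -2.14 for CHAC1, -1.24 for PCK2, -1.38 for DDIT3, -1.396 for H1-2 and -1.397 for PPP1R15A. Among those that widened with 3D higher it was 1.06 for BCLAF1, 1.19 for MPHOSPH9, 1.72 for ASPM, 0.86 for CEP192, 1.28 for SMC2 and 0.94 for TTC3.

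Among differences that closed, the interaction was -0.69 for S100A6, -0.76 for FTH1, -0.67 for RPL13, -0.66 for RPL36 and -0.54 for RPL8. It was 0.79 for IREB2 and 0.76 for ATP2C1, which had been lower in 3D at timepoint 2.

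Among reversed differences it was 1.16 for KIAA0586, 0.96 for XPO1, 1.10 for SNX14, 1.02 for ATR, 1.34 for ZFYVE16 and 0.87 for ALG8. It was 1.23 for MTX3, 1.11 for SMCHD1 and 1.12 for TRPM7. The values were -1.27 for SIGIRR, -0.91 for UPP1, -1.02 for H2AC25, -0.64 for WDR45, -1.25 for LARP6 and -1.65 for DENND6B.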

How the results depend on the processing

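All 109 interaction calls kept their sign under the alternatives that tested them, while their number depended on the settings. Calls are given in the order interaction, then change over time in 3D, then in 2D, and differences that widened, closed and reversed. With 12 libraries they were 0, 121 and 56, and 0, 0 and 0. Without the replicate block, that is without the pairing, they were 0, 0 and 0, and 0, 0 and 0, with 287 culture calls at timepoint 3, 1470 at timepoint 2 and 158 persisting; the dispersion was 0.0594 without the block and 0.0192 with it. All 6 groups with 17 libraries gave 0, 0 and 7, and 0, 0 and 0, with 1813 and 2949 culture calls and 1084 persisting, and 18 libraries gave 0, 0 and 17, and 0, 0 and 0, with 1052, 2839 and 736. No filter on low counts gave 1073, 1436 and 946, and 484, 471 and 65, and DESeq2 gave 1175, 1535 and 928, and 512, 555 and 65. The stricter filter gave 364 interaction calls and 255 in 2D over time, with 159, 155 and 50. Limma-voom gave 299 with 122, 125 and 52, and limma on the deposited log2 CPM gave 324, and 222 in 2D over time, with 132, 137 and 55. With 12 libraries DESeq2 gave 268, 1042 and 571, and 13, 250 and 5, and limma-voom gave 0, 245 and 62, and 0, 0 and 0. The offset for length and GC content gave 7, 392 and 60, and 4, 1 and 2. The cause of these shifts was not tested.

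Leaving out a library, or replicate 1 as a whole, gave 0 to 417 interaction calls, 1273 to 4948 culture calls at timepoint 3 and 3153 to 5193 at timepoint 2, 37 to 1180 calls over time in 3D and 0 to 414 in 2D. Widened differences ran from 0 to 206, closed from 0 to 152, reversed from 0 to 59 and persisting from 918 to 2159. The interaction had 0 calls without 3D timepoint 3 replicate 2, 2D timepoint 3 replicate 2 or 3, or 2D timepoint 2 replicate 3. It had 3 without 3D timepoint 2 replicate 3, 5 without 3D timepoint 2 replicate 2, 8 and 9 without 2D timepoint 2 replicates 2 and 1, and 56 and 67 without 3D timepoint 3 replicates 1 and 3. It had 417 without 3D timepoint 2 replicate 1 and 247 without replicate 1. Where 2D timepoint 3 kept 1 library, that library was assumed to vary like the other groups.

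Signs of the interaction also turned for named genes without a call. HSPA5, at -0.07, had 0.0011 without the replicate block, 0.068 without 3D timepoint 3 replicate 3, 0.028 without 3D timepoint 2 replicate 2 and 0.014 without 2D timepoint 2 replicate 2. CLDN4, at 0.13, had -0.56 without the replicate block, -0.027 with 17 libraries, -0.014 by limma-voom and -0.051 without 2D timepoint 3 replicate 2. CLDN4 also had -0.52 without 3D timepoint 2 replicate 1, -0.026 without 2D timepoint 2 replicate 1 and -0.46 without replicate 1. KLK7, at -1.53, had 2.85 without 3D timepoint 2 replicate 3 and 0.47 by DESeq2 with 12 libraries. Over all fits that left out libraries the lowest and highest values were -0.31 and 0.068 for HSPA5, -0.52 and 0.54 for CLDN4, and -4.25 and 2.85 for KLK7. Among 12 persisting genes the interaction changed sign in 13 of 26 alternatives for PCLAF, 8 for SUB1, 5 each for RBIS, ELF3, KRT16 and TSC22D3 and 4 each for CDKN3, IL1RN and CA2. ELF3 had 0.48 with 12 libraries, against -0.24 with 11.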
